A study of Mus musculus with 9 samples.

Results

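Transcripts of 9 WNT ligand genes, *Wnt3*, *Wnt4*, *Wnt5a*, *Wnt5b*, *Wnt6*, *Wnt7a*, *Wnt7b*, *Wnt10a* and *Wnt11*, were followed through the ectoderm and the mesenchyme of mouse forelimb buds and across 3 genotypes. The genes were found by their symbols, which each occurred among the 32289 features of all 9 libraries, and they are 9 of the 19 WNT ligand genes of the mouse. Pairs of forelimb buds were dissected at E10.75 (37 to 39 somites), each pair was made into its own droplet library, and the 3′ ends of transcripts were counted as unique molecular identifiers (UMIs) per cell. There were 3 libraries of wild-type (Wt) embryos, 3 of *EC1CRM8*Δ/Δ embryos (*E1C8*Δ/Δ) and 3 of *EC1CRM5*Δ/Δ embryos (*E1C5*Δ/Δ). Both alleles are germline deletions of limb bud enhancers of *Grem1*, which encodes a secreted protein that binds and blocks BMP signals, and the homozygous embryos lose an anterior digit. All embryos had a Swiss Albino background. The comparisons asked where in the bud each ligand is transcribed, and whether its level in those cells differs between the genotypes.

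WNT proteins are lipid-modified secreted signals that act at short range. They bind Frizzled receptors together with LRP5 or LRP6 to stabilise β-catenin, which works with TCF and LEF factors in the nucleus, or they signal through ROR and RYK receptors to cell polarity and movement without β-catenin. In the limb bud, ectodermal WNTs that act through β-catenin maintain the apical ectodermal ridge (AER) and keep the mesenchyme beneath it undifferentiated, WNT7A from the dorsal ectoderm induces *Lmx1b* in the dorsal mesenchyme, and WNT5A from the distal mesenchyme orients outgrowth.

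Cells were assigned to lineages by panels of marker genes that hold no WNT gene. A cell was called ectoderm with UMIs of at least 4 of 12 epithelial markers and little of the mesenchymal panel, which gave 502 cells, and mesenchyme by *Prrx1*, *Prrx2*, *Pdgfra*, *Twist1* and *Tbx5*, which gave 36832 of the 44654 cells kept from 133086 barcodes. All 12 epithelial markers had UMIs in the ectoderm of every library with at least 10 such cells, with a summed level of 2512 to 3669 CPM (a gene's UMIs divided by all UMIs of the same cells, times 1000000), against 9.77 to 20.9 CPM in the mesenchyme. The ectoderm retained 64.3 to 139 CPM of the mesenchymal panel, and its part in the ligand levels of the ectoderm was not tested. Libraries were uneven, with 26620760 to 500559729 UMIs and 592 to 8699 kept cells, and Wt replicate 3 and *E1C5*Δ/Δ replicate 2 had 8 and 9 ectoderm cells, so that tests in the ectoderm used the other 7 libraries. No pair of libraries shared more than 0.497% of the barcodes of the smaller one. All 3 Wt libraries were male, and 2 of the 3 libraries of each mutant were female. As a check of the labels, *Grem1* in the mesenchyme was at 44.8, 28.8 and 33.0 CPM in Wt. It was at 11.2, 11.3 and 14.0 CPM in *E1C8*Δ/Δ and 17.4, 16.5 and 26.3 CPM in *E1C5*Δ/Δ, so that every mutant library lay below every Wt library. The check does not tell the alleles apart. *Grem1* RNA was lower in *E1C8*Δ/Δ than in *E1C5*Δ/Δ, while the study reports that more of the protein was left in *E1C8*Δ/Δ. RNA and protein are different measures.

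The ligands fell into an ectodermal set, a mesenchymal pair and *Wnt5a*, which was abundant in both tissues. *Wnt6*, *Wnt3*, *Wnt10a*, *Wnt7b*, *Wnt7a* and *Wnt4* were higher in the ectoderm by log2 fold changes of 7.04 to 9.18, *Wnt5b* and *Wnt11* were higher in the mesenchyme, and *Wnt5a* differed little. All 9 genes passed the filter on low counts and the test between both tissues of the same library (edgeR quasi-likelihood, library as block, Benjamini-Hochberg adjusted p under 0.05 over 13419 genes), 7 higher in the ectoderm and 2 lower. Of all genes tested, 55.5% did so, 27.1% higher and 28.4% lower, so that passing the test was common and the size of the difference carries the description. For bulk sums of this kind, fewer cells that transcribe a gene and less RNA per cell cannot be told apart.

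*Wnt6*, *Wnt3* and *Wnt10a* encode ligands of the limb ectoderm that act through β-catenin, with *Wnt3* known as the mouse ligand that the AER needs. *Wnt6* was at 231 CPM in the lowest of the 7 ectoderm samples, 371 CPM in the median and 397 CPM in the highest, against 0.174, 0.401 and 1.17 CPM in the mesenchyme of the 9 libraries. *Wnt3* was at 49.5, 63.8 and 73.6 CPM in the ectoderm and at 0.0289, 0.116 and 0.219 CPM in the mesenchyme. *Wnt10a* was the least abundant of the set, at 4.85, 14.4 and 18.8 CPM in the ectoderm and between 0 and 0.0604 CPM in the mesenchyme. For all 3 genes every ectoderm sample lay above every mesenchyme sample. The log2 fold changes were 9.18 ± 0.29 for *Wnt6* (SE, adjusted p = 2.25e-07), 8.95 ± 0.19 for *Wnt3* (adjusted p = 4.38e-35) and 8.80 ± 0.42 for *Wnt10a* (adjusted p = 2.77e-22), in 7 of 7 libraries each.

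*Wnt7a* and *Wnt7b* are close paralogs, and *Wnt4* is an ectodermal ligand best known from kidney and gonad. *Wnt4* was at 129, 221 and 269 CPM in the ectoderm (lowest, median and highest) and at 1.05, 1.52 and 2.00 CPM in the mesenchyme. *Wnt7b* was at 23.1, 49.3 and 71.3 CPM in the ectoderm and at most 0.302 CPM in the mesenchyme. *Wnt7a* varied more among the ectoderm samples than the other 2, with 56.0 CPM in Wt replicate 1 and 61.0 CPM in *E1C5*Δ/Δ replicate 3 but 13.1 to 22.1 CPM in the other 5, against at most 0.292 CPM in the mesenchyme. The tissues did not overlap for any of these genes. The log2 fold changes were 7.04 ± 0.08 for *Wnt4* (adjusted p = 1.88e-44), 7.89 ± 0.23 for *Wnt7b* (adjusted p = 3.71e-30) and 7.87 ± 0.64 for *Wnt7a* (adjusted p = 1.43e-05).

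The noncanonical ligands *Wnt5b* and *Wnt11* ran the other way. *Wnt5b* was at 12.3, 14.3 and 17.2 CPM in the mesenchyme (lowest, median and highest of 9) and at 0, 2.75 and 6.87 CPM in the ectoderm, with no overlap (log2 fold change −2.02 ± 0.22, adjusted p = 2.06e-09). *Wnt11* was at 3.85, 4.80 and 10.5 CPM in the mesenchyme and at 0.679, 2.33 and 11.3 CPM in the ectoderm, where the highest value came from the 11 ectoderm cells of *E1C8*Δ/Δ replicate 1, the only library in which the ectoderm was higher (log2 fold change −1.16 ± 0.25, adjusted p = 0.000141). Few UMIs stood behind these ectodermal levels, 46 of *Wnt5b* and 34 of *Wnt11* in all.

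*Wnt5a*, a noncanonical ligand that acts through ROR receptors, was the member with the most UMIs, 119324 in all cells. Its level was 48.2, 134 and 167 CPM in the ectoderm and 68.4, 83.4 and 126 CPM in the mesenchyme, so that the ranges overlapped. It was higher in the ectoderm in 6 of 7 libraries, by a log2 fold change of 0.38 ± 0.12 (adjusted p = 0.0185). This call was lost under stricter gates (0.18, adjusted p = 0.0591), without the library block and without any of Wt replicate 1 or *E1C8*Δ/Δ replicates 2 and 3.

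**Figure D1:**
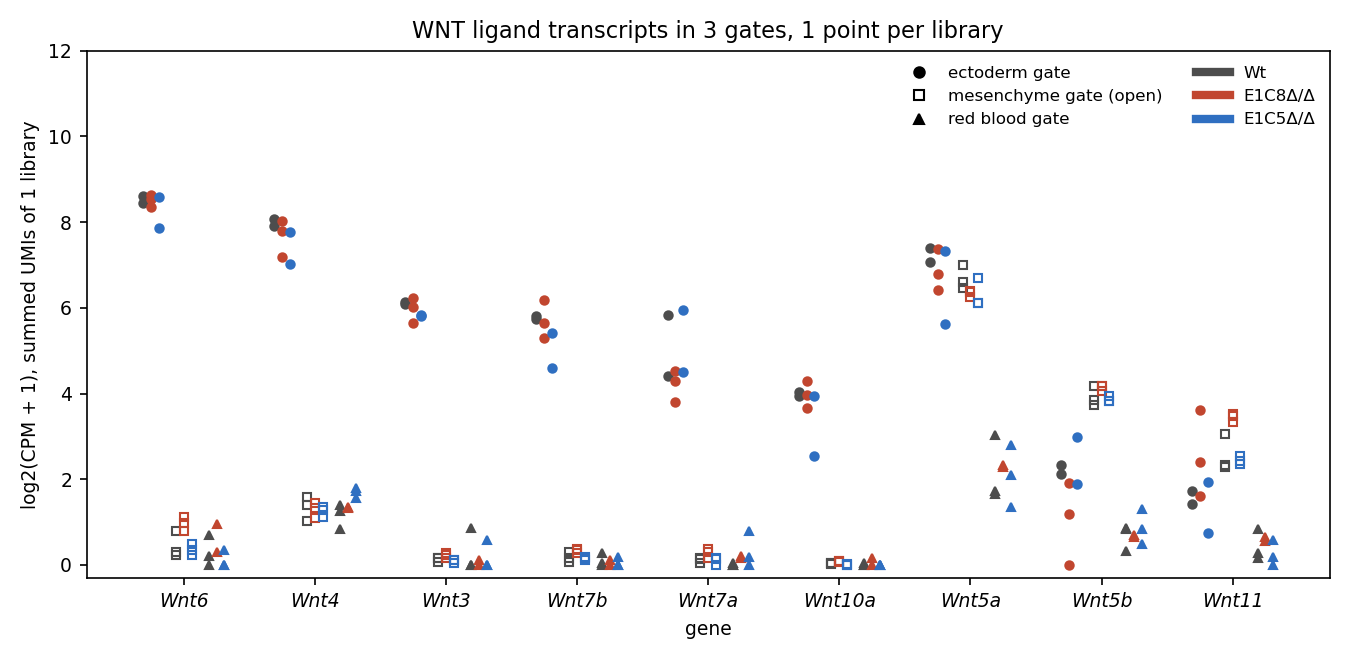
Level of each ligand as log2(CPM + 1) (y axis) in the ectoderm (filled circles), mesenchyme (open squares) and red blood cells (triangles), 1 point per library with at least 10 such cells, coloured by genotype. *Wnt6*, *Wnt4*, *Wnt3*, *Wnt7b*, *Wnt7a* and *Wnt10a* are separated between ectoderm and mesenchyme, *Wnt5a* is high in both, and *Wnt5b* and *Wnt11* are higher in the mesenchyme.

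A low level in one tissue can come from RNA that is free in the droplets, so red blood cells, which should transcribe none of these ligands, give the background. In the 8 libraries with at least 10 red blood cells, *Wnt4* was at 0.776 to 2.48 CPM there, a range that contains its mesenchymal levels. Mesenchymal *Wnt6* (0.174 to 1.17 CPM against 0 to 0.932 CPM), *Wnt3* (at most 0.219 against 0.825 CPM) and *Wnt7a* (at most 0.292 against 0.744 CPM) were also close to or inside the range of the red blood cells. Mesenchymal *Wnt7b* reached 0.302 CPM against at most 0.206 CPM in red blood cells, and 40 of 36829 mesenchymal cells thinned to 5000 UMIs had a UMI against 0 of 2142 red blood cells, which allows a share of up to 0.14%. By contrast *Wnt5b* was at 0.245 to 1.49 CPM and *Wnt11* at 0 to 0.776 CPM in red blood cells, below all of their samples of the whole mesenchyme, and *Wnt5a* was at 1.56 to 7.22 CPM there.

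The same ranking appeared in single cells. With each cell thinned to 5000 UMIs, *Wnt6* had a UMI in 362 of 502 ectoderm cells (72.1%, 95% exact binomial interval 68.0 to 76.0%), *Wnt4* in 52.2% (47.7 to 56.6%), *Wnt5a* in 35.1% (30.9 to 39.4%) and *Wnt3* in 21.7% (18.2 to 25.6%). *Wnt7b* had one in 18.9% (15.6 to 22.6%), *Wnt7a* in 9.56% (7.13 to 12.5%) and *Wnt10a* in 5.38% (3.57 to 7.73%) of them. Of 36829 mesenchymal cells, 30.8% had a UMI of *Wnt5a*, 7.09% of *Wnt5b* and 2.97% of *Wnt11*, against 1.96%, 0.42% and 0.14% of 2142 red blood cells. The share with *Wnt4* was 0.812% in the mesenchyme (0.723 to 0.909%) and 0.70% in red blood cells (0.392 to 1.15%), and that with *Wnt6* 0.35% and 0.14%. Before thinning, the median depth per library was 13339 to 22985 UMIs in ectoderm, 15961 to 47258 in mesenchyme and 18079 to 76444 in red blood cells. The intervals cover counting error only, and shares pooled over libraries ignore the spread between embryos.

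Many ectoderm cells carried more than 1 ligand. At 5000 UMIs, an ectoderm cell held UMIs of 1.56 to 2.54 of the 9 members on average (7 libraries), and 49.1 to 82.1% of the cells held at least 2. Mesenchymal cells held 0.334 to 0.505 members on average, and red blood cells 0.0260 to 0.235. The most frequent pair was *Wnt6* with *Wnt4*, in 212 cells, which is 58.6% of the cells with *Wnt6* and 80.9% of those with *Wnt4*. *Wnt7a* and *Wnt7b* met in 13 cells, 27.1% of the 48 *Wnt7a* cells and 13.7% of the 95 *Wnt7b* cells.

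The ectoderm made up 502 of 44654 cells and, with libraries pooled, held most of the transcripts of 5 of the 6 ectodermal ligands. Pooled over libraries, 65.2% of the *Wnt6* UMIs of all kept cells, 64.2% of *Wnt3*, 62.3% of *Wnt10a*, 61.2% of *Wnt7a*, 58.3% of *Wnt7b* and 46.0% of *Wnt4* lay in the ectoderm, against 1.38% of *Wnt5a*, 0.459% of *Wnt11* and 0.223% of *Wnt5b*. Single libraries spread widely around these shares, from 27.5 to 76.6% for *Wnt7a* and from 57.9 to 86.7% for *Wnt6*. The remaining UMIs of the ectodermal genes were split between the mesenchyme, with 9.54% for *Wnt6* (the lowest), 20.1% for *Wnt7b* and 30.4% for *Wnt4* (the highest), and other or mixed cells, with 18.8 to 27.1%. The share of ectoderm cells themselves was 0.981 ± 0.0996% in Wt (SD, n = 3) and 1.20 ± 0.479% in the mutants (n = 6), a difference of 0.221 percentage points that lay within the spread (two-sided exact permutation p = 0.5, smallest possible p = 0.0119). By allele it was 1.45 ± 0.371% in *E1C8*Δ/Δ, with all 3 libraries above the Wt maximum of 1.09%, and between 0.429 and 1.41% in *E1C5*Δ/Δ (n = 3 each, not tested).

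The start regions of 4 genes are shown, those of *Wnt6*, the most abundant ectodermal ligand, of *Wnt7a*, which differed within the ectoderm by *En1*, and of *Wnt5b* and *Wnt11*, which were higher in the mesenchyme. They are RefSeq sequences of GRCm38.p6, the bases before the annotated gene start, read 5′ to 3′ on the gene's strand: *Wnt6* at chr1:74771642-74771891 (plus strand), *Wnt7a* at chr6:91411364-91411603 (minus), *Wnt5b* at chr6:119544348-119544597 (minus) and *Wnt11* at chr7:98834862-98835111 (plus). Capitals mark letters that match, on either strand, the LEF/TCF motif CTTTGAT, the GC box GGGCGG, the TATA box TATAAA or the AP-2 motif GCCNNNGGC.
Wnt6: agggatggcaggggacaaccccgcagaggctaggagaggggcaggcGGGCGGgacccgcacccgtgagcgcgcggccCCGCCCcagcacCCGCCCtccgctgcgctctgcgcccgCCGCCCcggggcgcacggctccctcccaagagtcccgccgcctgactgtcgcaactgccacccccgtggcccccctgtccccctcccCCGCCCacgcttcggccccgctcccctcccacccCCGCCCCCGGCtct
Wnt7a: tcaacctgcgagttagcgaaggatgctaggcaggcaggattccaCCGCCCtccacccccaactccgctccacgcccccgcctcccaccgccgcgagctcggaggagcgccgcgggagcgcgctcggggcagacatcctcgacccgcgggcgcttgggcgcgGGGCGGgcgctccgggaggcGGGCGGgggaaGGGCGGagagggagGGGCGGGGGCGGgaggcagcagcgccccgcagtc
Wnt5b: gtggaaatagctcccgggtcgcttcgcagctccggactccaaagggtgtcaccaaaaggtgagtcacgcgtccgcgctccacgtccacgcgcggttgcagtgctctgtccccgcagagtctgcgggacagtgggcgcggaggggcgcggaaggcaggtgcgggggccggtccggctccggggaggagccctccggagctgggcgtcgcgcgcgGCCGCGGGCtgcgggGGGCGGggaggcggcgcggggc
Wnt11: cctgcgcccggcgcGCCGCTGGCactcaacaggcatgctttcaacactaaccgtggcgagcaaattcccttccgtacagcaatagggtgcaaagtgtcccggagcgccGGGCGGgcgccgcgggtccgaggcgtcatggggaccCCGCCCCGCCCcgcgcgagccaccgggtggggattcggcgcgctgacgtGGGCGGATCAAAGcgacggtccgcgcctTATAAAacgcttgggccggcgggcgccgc
All of these starts are rich in G and C, at 70.8 to 79.6% of the 250 bases searched against a median of 52.4% over 32851 promoters. The 250 bases before the starts of *Wnt6* and *Wnt7a* each held 6 GC boxes, those of *Wnt11* 4 and those of *Wnt5b* 1. Of the ectodermal ligands not shown, *Wnt4* held 8 and *Wnt3* 2. The motif is found in 32.7% of all promoters, which were not matched for G and C. Of the 4 starts shown, that of *Wnt11* was the one with a LEF/TCF match and with a TATA box. The LEF/TCF match lay 51 bases before the start, directly after a GC box, and the TATA box 29 bases before it. A further RefSeq start of *Wnt5b*, inside the gene and not shown, has a LEF/TCF match 71 bases before it. The LEF/TCF letters occur in 3.21% of all promoters, the TATA letters in 12.4% and the AP-2 letters in 13.7%. The AP-2 match of *Wnt6*, 12 bases before its start, overlaps a GC box. RefSeq starts were matched for 6 of the 9 members (*Wnt3*, *Wnt4*, *Wnt5b*, *Wnt6*, *Wnt7a* and *Wnt11*), and a match of letters does not show that a factor binds.

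In the genome (GRCm38, GENCODE M21) *Wnt6* (chromosome 1, 74771892 to 74785322) and *Wnt10a* (chromosome 1, 74791516 to 74804179) lie next to each other on the plus strand. They shared the ectodermal pattern with the other ectodermal ligands. *Wnt6* had a UMI in 25 of the 27 ectoderm cells with *Wnt10a* (92.6%), against 72.1% of all ectoderm cells, pooled over libraries. It had one in 80.9% of the cells with *Wnt4*, 79.8% with *Wnt3*, 77.1% with *Wnt7a* and 71.6% with *Wnt7b*, which lie on other chromosomes. A part of the neighbouring position in this was not tested. *Wnt5b* and *Wnt7a* both lie on chromosome 6, far apart, and the other members are on chromosomes 11 (*Wnt3*), 4 (*Wnt4*), 14 (*Wnt5a*), 15 (*Wnt7b*) and 7 (*Wnt11*). Annotated genes overlap *Wnt5a*, *Wnt5b*, *Wnt6*, *Wnt7b* and *Wnt11* on the opposite strand.

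**Figure D2:**
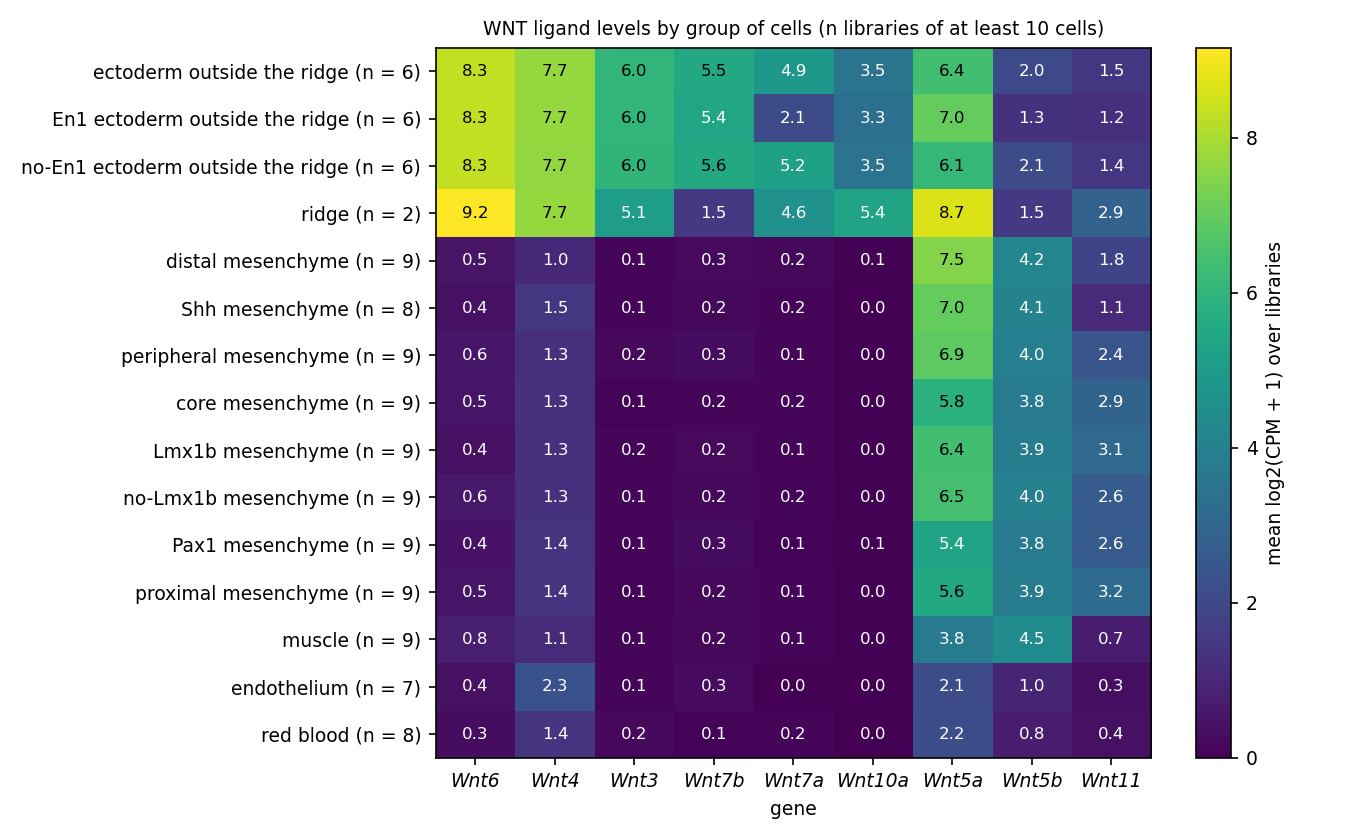
Mean log2(CPM + 1) of each ligand (columns) in groups of cells (rows), over the n libraries that held at least 10 cells of the group, colour and number giving the same value. The ectodermal ligands stand out in the upper rows, and *Wnt5a* peaks in the ridge and in the distal mesenchyme.

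Within the ectoderm, the AER stood out by *Wnt5a* and by a near absence of *Wnt7b*. Ridge cells were taken as ectoderm cells with at least 2 UMIs of *Fgf8*, the FGF gene that defines the AER, after thinning, and cells with none as ectoderm outside the ridge. There were 55 ridge cells, and only Wt replicate 2 and *E1C8*Δ/Δ replicate 2 held at least 10 of them (10 and 13), so that the test rests on those 2 embryos and has 1 residual degree of freedom. Of the 7 members tested, 4 passed, against 4.79% of the 8521 genes tested.

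*Wnt5a* was at 407 CPM in the ridge and 105 CPM outside it in Wt replicate 2, and at 413 and 83.8 CPM in *E1C8*Δ/Δ replicate 2, a log2 fold change of 2.20 ± 0.19 (adjusted p = 4.67e-29). *Wnt6* was at 563 and 368 CPM and at 584 and 378 CPM in the same order (0.71 ± 0.16, adjusted p = 0.000406). *Wnt10a* was at 36.1 and 12.1 CPM and at 44.0 and 12.3 CPM (1.78 ± 0.53, adjusted p = 0.0229). All 3 were higher in the ridge in both embryos. *Wnt7b* was the member that was lower, with 7.21 CPM in the ridge against 61.0 CPM outside it in Wt replicate 2 and with 0 against 53.5 CPM in *E1C8*Δ/Δ replicate 2 (−3.63 ± 0.68, adjusted p = 7.08e-06). Over all 9 libraries the ridge cells held 7 *Wnt7b* UMIs and the ectoderm outside the ridge 594.

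The other members tested gave no call. *Wnt3* was at 25.2 and 44.0 CPM in the ridge against 73.9 and 75.7 CPM outside it (−1.09 ± 0.37, adjusted p = 0.067), *Wnt4* differed by −0.28 ± 0.20 (adjusted p = 0.621) and *Wnt7a* by 0.30 ± 0.54 (adjusted p = 0.915). *Wnt5b* and *Wnt11* had too few counts to be tested. DESeq2 called only *Wnt5a* (adjusted p = 1.25e-10), and without the library block *Wnt6* and *Wnt10a* lost their calls, *Wnt10a* also without the filter on low counts. When libraries with at least 3 ridge cells were admitted, an alternative added after the data had been seen, *Wnt5a* (2.19), *Wnt6* (0.72) and *Wnt7b* (−3.15) kept their calls, *Wnt4* (−0.77, adjusted p = 0.00351) and *Wnt3* (−0.72, adjusted p = 0.0351) were called lower in the ridge, and *Wnt10a* was not tested.

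Outside the ridge, *Wnt7a* separated cells without *En1* from cells with it. *En1* encodes a homeodomain factor of the ventral ectoderm that is known to keep *Wnt7a* dorsal, and 109 cells had at least 1 *En1* UMI after thinning against 329 without. The group without *En1* is thus defined after thinning and was not free of the gene. At full depth 15.4 to 34.3% of its cells per library held an *En1* UMI, in the libraries tested. In the 6 libraries with at least 10 cells of each, *Wnt7a* was at 10.1 and 11.9 CPM in *En1* cells of Wt replicates 1 and 2, at 3.81 and 2.85 CPM in *E1C8*Δ/Δ replicates 2 and 3 and at 0 and 1.14 CPM in *E1C5*Δ/Δ replicates 1 and 3. The cells without *En1* were at 70.5, 22.7, 27.1, 19.1, 29.6 and 102 CPM in the same order, so that the groups did not overlap. The log2 fold change was −3.30 ± 0.48 (adjusted p = 0.00265). Only 14 *Wnt7a* UMIs stood behind the levels in *En1* cells, 10 of them in the Wt libraries, and these levels were not tested between genotypes. *Wnt7a* was 1 of 2 members called among the 7 tested, where 1.65% of 8826 genes were called.

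The other was *Wnt5a*, higher in *En1* cells in 6 of 6 libraries by a log2 fold change of 0.80 ± 0.14 (adjusted p = 0.000481). It was at 242, 118, 124, 122, 62.7 and 161 CPM in *En1* cells and at 103, 101, 70.6, 41.4, 26.7 and 121 CPM in the cells without, which overlap between embryos but not within one. *Wnt6* (0.02 ± 0.10), *Wnt3* (0.08 ± 0.15), *Wnt4* (0.15 ± 0.17), *Wnt7b* (−0.11 ± 0.16) and *Wnt10a* (−0.07 ± 0.36) differed by little, with adjusted p of at least 0.874. Neither call was made without the library block.

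**Figure D3:**
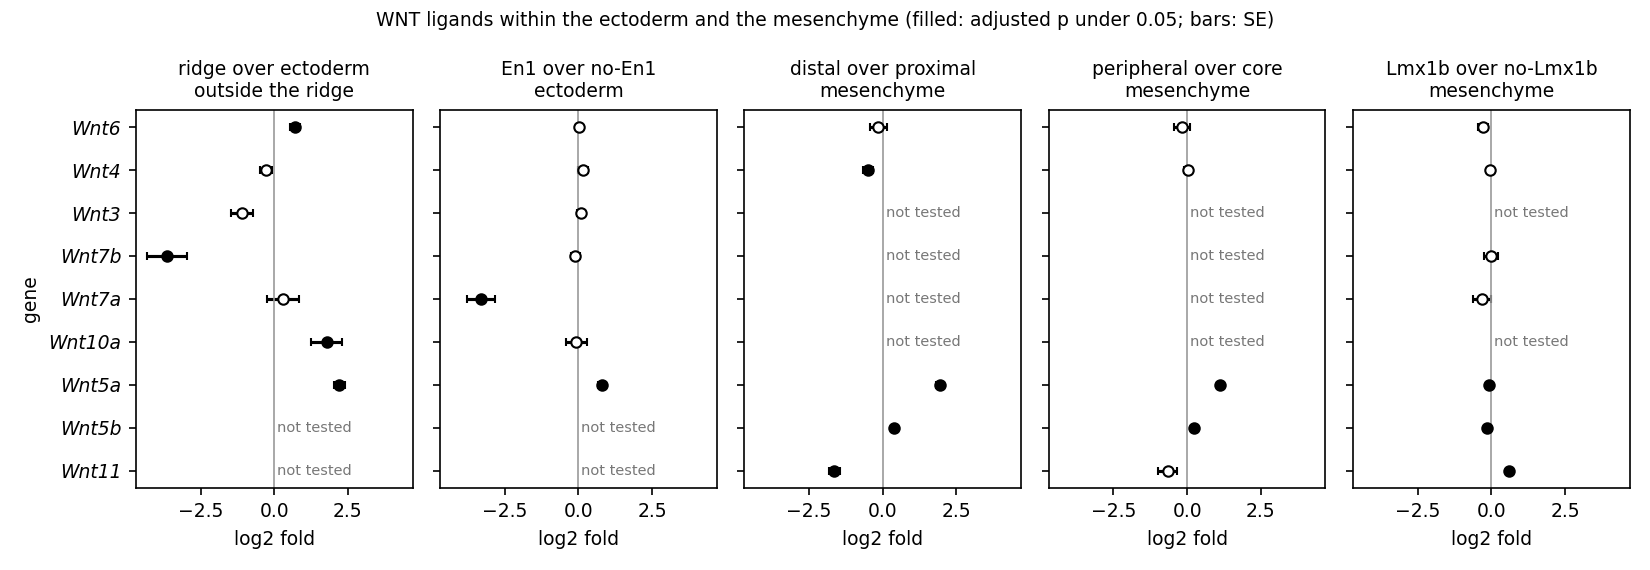
Fitted log2 fold change with its SE (x axis) of each ligand (y axis) in 5 comparisons of cells of the same libraries. Filled points have an adjusted p under 0.05, open points do not, and genes with too few counts are marked as not tested. *Wnt5a* is displaced to the right in the ridge, in distal and in peripheral mesenchyme, and *Wnt7a* far to the left in *En1* cells.

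In the mesenchyme, *Wnt5a* and *Wnt11* took opposite ends of the proximodistal axis. Distal cells were those with at least 2 UMIs of *Hoxa13* and *Hoxd13*, the genes of the future hand plate, after thinning to 10000 UMIs (2049 cells), and proximal cells those with none of them and at least 3 UMIs of *Meis1* and *Meis2* (13326 cells). *Wnt5a* was at 120, 185 and 266 CPM in distal cells (lowest, median and highest of 9 libraries) and at 37.8, 45.4 and 59.9 CPM in proximal cells, with no overlap (log2 fold change 1.95 ± 0.13, adjusted p = 1.26e-06, higher in 9 of 9). *Wnt11* was at 0.623, 2.49 and 6.80 CPM in distal and at 5.10, 6.80 and 13.1 CPM in proximal cells, lower distally in every library (−1.65 ± 0.19, adjusted p = 5.95e-06). The distal and proximal ranges of *Wnt11* overlapped only through *E1C8*Δ/Δ replicate 1.

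*Wnt5b* changed little along this axis, at 14.8, 16.9 and 21.1 CPM in distal cells and at a median of 12.8 CPM, at most 18.6, in proximal cells (0.37 ± 0.06, adjusted p = 3.09e-06, higher in 8 of 9 libraries). *Wnt4* was lower distally (−0.49 ± 0.17, adjusted p = 0.0116), at levels of 0.208 to 2.17 CPM that lie largely inside the red blood range given above, and its call was lost with doublets kept and without the library block. Thus 4 of 5 members tested were called, in a comparison where 60.1% of 13410 genes were.

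Toward the ectoderm, *Wnt5a* was again the higher gene. Peripheral cells, chosen by *Asb4* and *Msx1*, numbered 5793 and cells of the chondrogenic core, chosen by *Sox9* and *Col2a1*, 4842. *Wnt5a* was at 97.7, 109 and 159 CPM in peripheral cells (lowest, median and highest) and at 37.6, 56.3 and 78.2 CPM in the core, without overlap (1.11 ± 0.10, adjusted p = 1.12e-05). *Wnt5b* was at 12.6, 14.7 and 17.9 CPM against 9.95, 11.7 and 16.8 CPM (0.25 ± 0.06, adjusted p = 0.000582). These were the 2 of 5 members tested that were called, where 60.9% of 14060 genes were. *Wnt11* was lower in the periphery in 7 libraries but higher in Wt replicate 3 (11.9 against 4.59 CPM) and *E1C8*Δ/Δ replicate 1 (11.6 against 8.42 CPM), and gave no call (−0.65 ± 0.32, adjusted p = 0.115). Without Wt replicate 3 it was called (−0.83, adjusted p = 0.026).

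The dorsoventral axis was read by *Lmx1b*, and *Wnt11* was higher in the cells with a UMI of it, while *Wnt5b* and *Wnt5a* were slightly lower. After thinning, *Lmx1b*, which encodes the LIM-homeodomain factor that WNT7A induces, had a UMI in 11317 mesenchymal cells and none in 23297. The second group can hold cells whose *Lmx1b* was not sampled, so it is not a ventral group. *Wnt11* was at 5.22, 6.46 and 13.1 CPM in *Lmx1b* cells (lowest, median and highest) and at a median of 3.84 CPM, at most 9.64, in the others, and higher in *Lmx1b* cells of 9 of 9 libraries (0.60 ± 0.04, adjusted p = 2.17e-15). *Wnt5b* (−0.16 ± 0.03, adjusted p = 8.56e-06) and *Wnt5a* (−0.09 ± 0.02, adjusted p = 0.0165) were lower by 1.12-fold and 1.07-fold. Per library the log2 ratio of *Wnt5a*, from log2(CPM + 1), was −0.29 in Wt replicate 3 and between −0.10 and 0.08 in the others, so that its direction was mixed. Of the 7 members tested these 3 were called, against 27.3% of 15326 genes, and none was without the library block, where 98 genes in all were.

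Smaller groups of the mesenchyme gave the same order of levels. In cells with a UMI of *Shh*, the posterior signal of the bud, *Wnt5a* was at 222, 161 and 168 CPM in Wt replicates 1 to 3 and *Wnt11* at 0.381, 0.925 and 1.01 CPM, in or near the red blood range. In cells with a UMI of *Pax1*, an anterior and proximal gene, *Wnt5a* was at 41.5, 51.4 and 39.7 CPM and *Wnt11* at 3.52, 3.32 and 9.07 CPM. *Wnt5b* was at 18.9, 16.8 and 12.1 CPM in the former and at 13.7, 11.9 and 15.6 CPM in the latter. In the mutants *Wnt5a* was at 73.4 to 130 CPM in the *Shh* cells of the 5 libraries with at least 10 of them, below the 3 Wt libraries, and at 27.6 to 54.0 CPM in the *Pax1* cells, and these groups were not tested between genotypes.

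Between genotypes, *Wnt5a* was lower and *Wnt11* higher in the distal mesenchyme of the mutants, and *Wnt11* was also higher over the whole mesenchyme of *E1C8*Δ/Δ. Of the 9 members 3 could be tested there, and *Wnt5a* and *Wnt11* passed when the mean of the mutants was set against Wt, where 1.65% of 11072 genes did. In distal cells *Grem1* fell from 77.7, 58.7 and 64.5 CPM in Wt to 8.31, 16.1 and 17.4 CPM in *E1C8*Δ/Δ and 12.3, 11.5 and 26.3 CPM in *E1C5*Δ/Δ, which is log2 fold changes of −2.09 ± 0.29 (adjusted p = 0.00386) and −1.90 ± 0.27 (adjusted p = 0.00602).

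*Wnt5a* in distal cells was at 266, 228 and 192 CPM in Wt, at 185, 189 and 175 CPM in *E1C8*Δ/Δ and at 120, 130 and 160 CPM in *E1C5*Δ/Δ. Every mutant library lay below every Wt library, *E1C8*Δ/Δ replicate 2 by a small margin, and every *E1C5*Δ/Δ library lay below every *E1C8*Δ/Δ library. The log2 fold change was −0.52 ± 0.10 for the mean of the mutants (adjusted p = 0.0119), −0.72 ± 0.12 for *E1C5*Δ/Δ (adjusted p = 0.00393) and −0.31 ± 0.12 for *E1C8*Δ/Δ (adjusted p = 0.113). The difference between the alleles, 0.40 ± 0.12, gave an adjusted p of 0.0516 with edgeR. Between the alleles edgeR called none of the 3 members and 6.3% of all genes. *Wnt5a* and *Wnt11* had an unadjusted p under 0.05, as did 22.6% of all genes. DESeq2 called *Wnt5a* there (adjusted p = 0.0419), as did edgeR without the filter on low counts and without Wt replicate 1, Wt replicate 3 or *E1C5*Δ/Δ replicate 3. Both alleles are set against the same Wt libraries.

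*Wnt11* in distal cells was at 1.29, 1.32 and 0.623 CPM in Wt, at 6.80, 3.69 and 4.89 CPM in *E1C8*Δ/Δ and at 3.65, 1.96 and 2.49 CPM in *E1C5*Δ/Δ. All 6 mutant libraries were above all 3 Wt libraries, from 184 UMIs in all. Wt replicate 3 lay inside the red blood range of 0 to 0.776 CPM and the other Wt libraries not far above it, and the part of this background in the fold was not tested. The log2 fold change was 1.60 ± 0.31 for the mean of the mutants (adjusted p = 0.0129), 1.99 ± 0.36 for *E1C8*Δ/Δ (adjusted p = 0.00526) and 1.22 ± 0.36 for *E1C5*Δ/Δ (adjusted p = 0.14). *Wnt5b* was at 16.6, 16.2 and 18.1 CPM in Wt and between 14.8 and 21.1 CPM in the mutants (0.12 ± 0.12, adjusted p = 0.691). Of the 3 members, *Wnt11* was the 1 called in *E1C8*Δ/Δ and *Wnt5a* the 1 called in *E1C5*Δ/Δ, where 6.63% and 1.13% of all genes were called.

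**Figure D4:**
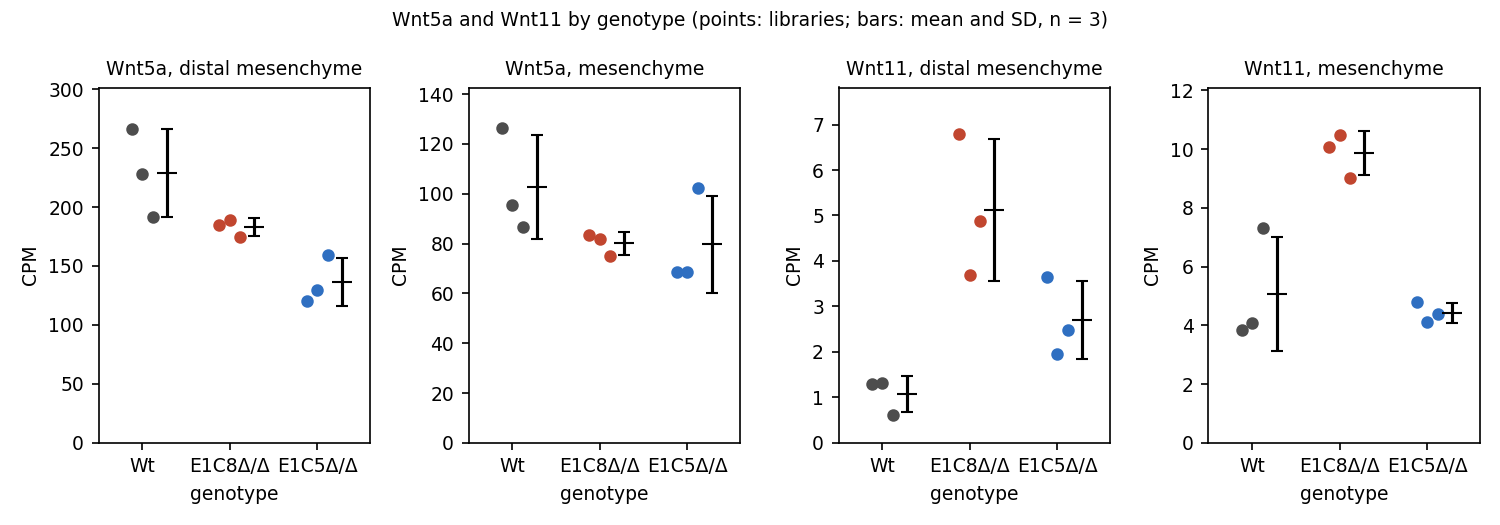
CPM (y axis, linear, from 0) of *Wnt5a* and *Wnt11* in the distal mesenchyme and in the whole mesenchyme, by genotype (x axis), with 1 point per library and the mean and SD beside them (n = 3). In distal cells all Wt points lie above the mutant points for *Wnt5a* and below them for *Wnt11*, and in the whole mesenchyme the *E1C8*Δ/Δ points of *Wnt11* lie above all others.

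Values that moved with these differences stand beside them. Distal cells were 8.44, 6.97 and 10.3% of the mesenchyme in Wt, 8.18, 3.99 and 4.06% in *E1C8*Δ/Δ and 4.10, 4.64 and 5.53% in *E1C5*Δ/Δ. Within the distal cells, which both genes helped to select, *Hoxd13* was at 220 to 243 CPM in Wt, 170 to 175 CPM in *E1C8*Δ/Δ and 132 to 156 CPM in *E1C5*Δ/Δ. *Hoxa13*, the other selecting gene, was at 67.7, 52.4 and 64.7 CPM in Wt and 69.5, 62.2 and 66.8 CPM in *E1C8*Δ/Δ but at 15.0, 42.2 and 15.0 CPM in *E1C5*Δ/Δ, below every other library. The part of this in the levels of *Wnt5a* and *Wnt11* was not tested. With the sex of the library as a covariate the distal calls of *Wnt5a* (mutants −0.54, adjusted p = 0.177, *E1C5*Δ/Δ −0.75, adjusted p = 0.0548) and of *Wnt11* in the mean of the mutants (1.53, adjusted p = 0.245) were lost, and that of *Wnt11* in *E1C8*Δ/Δ held (1.93, adjusted p = 0.0456). The male mutant libraries, *E1C8*Δ/Δ replicate 3 and *E1C5*Δ/Δ replicate 2, were at 175 and 130 CPM of *Wnt5a* and at 4.89 and 1.96 CPM of *Wnt11*. Without Wt replicate 1 or Wt replicate 2 the *Wnt5a* call of the mean of the mutants was lost as well (adjusted p = 0.0654 and 0.0604).

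Over the whole mesenchyme none of the 8 members tested was called for the mean of the mutants by edgeR or DESeq2, and 2 of them, *Wnt5a* and *Wnt11*, had an unadjusted p under 0.05, where 2.26% of 16207 genes were called and 3147 had such a p. *Wnt5a* was at 126, 95.5 and 86.7 CPM in Wt, 83.4, 82.0 and 74.9 CPM in *E1C8*Δ/Δ and 68.4, 68.5 and 102 CPM in *E1C5*Δ/Δ, with *E1C5*Δ/Δ replicate 3 inside the Wt range (−0.35 ± 0.12, adjusted p = 0.154). *Wnt11* was at 3.85, 4.06 and 7.31 CPM in Wt, 10.1, 10.5 and 9.03 CPM in *E1C8*Δ/Δ and 4.80, 4.12 and 4.38 CPM in *E1C5*Δ/Δ. All *E1C8*Δ/Δ libraries were above all others, while the *E1C5*Δ/Δ libraries lay inside the Wt range. The *E1C8*Δ/Δ libraries also had the lowest median depth in the mesenchyme, at 26306, 15961 and 22630 UMIs per cell. The medians were 29376.5 to 47258 UMIs in Wt and 30243 to 42675.5 UMIs in *E1C5*Δ/Δ. The part of depth in the levels here and in distal cells was not tested.

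Accordingly *Wnt11* was called in *E1C8*Δ/Δ (0.97 ± 0.20, adjusted p = 0.0132), as 1 of 8 members where 9.8% of genes were called, and not in *E1C5*Δ/Δ (−0.09 ± 0.20, adjusted p = 0.886). In *E1C5*Δ/Δ no member was called by edgeR or DESeq2 and none had an unadjusted p under 0.05, against 1.59% of genes called and 2225 with such a p. The alleles differed directly in *Wnt11* by 1.06 ± 0.20 (adjusted p = 0.00873), a call that held in each alternative run. The call of *E1C8*Δ/Δ against Wt was lost with the sex covariate (0.90, adjusted p = 0.0849), without *E1C8*Δ/Δ replicate 2 (adjusted p = 0.059) and without Wt replicate 2.

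The other member called between the alleles was *Wnt3* (1.44 ± 0.41, adjusted p = 0.0457), which makes 2 of 8, against 10.1% of genes. Its mesenchymal levels were 0.121, 0.181 and 0.219 CPM in *E1C8*Δ/Δ and 0.0761, 0.0289 and 0.0778 CPM in *E1C5*Δ/Δ, below the highest red blood level of 0.825 CPM, and 12 of 16 alternatives lost the call. *Wnt6* had a similar difference (1.68 ± 0.49, adjusted p = 0.0533), at 0.724, 1.17 and 0.971 CPM against 0.401, 0.174 and 0.28 CPM. The share of ectoderm cells was also higher on average in *E1C8*Δ/Δ, with overlap. It was 1.86, 1.38 and 1.13% of all cells against 1.41, 0.429 and 1.00% in *E1C5*Δ/Δ. Mesenchymal *Fgf8*, the gene of the ridge, was at 1.87 to 2.42 CPM in *E1C8*Δ/Δ against 0.246 to 0.36 CPM in *E1C5*Δ/Δ. The part of ectoderm cells and of the lower depth of *E1C8*Δ/Δ in the mesenchymal *Wnt3* and *Wnt6* was not tested.

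In the ectoderm no difference between genotypes was detectable at this depth. Of the 7 members tested none was called by edgeR or DESeq2 for the mean of the mutants (0% of 9889 genes called, 331 with an unadjusted p under 0.05), for *E1C8*Δ/Δ (0.0303%) or for *E1C5*Δ/Δ (0.0404%). An unadjusted p under 0.05 was reached by no member for the mean of the mutants or for *E1C8*Δ/Δ and by *Wnt4* and *Wnt7b* for *E1C5*Δ/Δ. Of all genes, 3.35%, 6.93% and 2.58% reached it in that order. *Wnt6* was at 346 and 388 CPM in Wt replicates 1 and 2, at 371, 397 and 324 CPM in *E1C8*Δ/Δ and at 383 and 231 CPM in *E1C5*Δ/Δ replicates 1 and 3 (−0.12 ± 0.21). *Wnt7b* was at 52.7 and 55.0 CPM, at 71.3, 49.3 and 38.5 CPM and at 23.1 and 41.6 CPM in the same order (−0.42 ± 0.22 for the mean of the mutants, −0.69 ± 0.27 for *E1C5*Δ/Δ).

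*Wnt5a* in the ectoderm was at 167 and 134 CPM in Wt, at 165, 109 and 83.8 CPM in *E1C8*Δ/Δ and at 48.2 and 160 CPM in *E1C5*Δ/Δ, whose libraries thus lay far apart (−0.46 ± 0.33, adjusted p = 1). Without *E1C5*Δ/Δ replicate 3 it was called for *E1C5*Δ/Δ (−1.53, adjusted p = 0.00249), but 1 library, the lowest of the 7, was then left in that group and was assumed to vary like the other groups. *Wnt3* (−0.20 ± 0.20), *Wnt4* (−0.42 ± 0.21), *Wnt7a* (−0.38 ± 0.39) and *Wnt10a* (−0.40 ± 0.35) were not called either. For *Wnt7a* *E1C8*Δ/Δ differed from Wt by −0.99 ± 0.47 and *E1C5*Δ/Δ by 0.23 ± 0.45, and for *Wnt10a* the values were −0.08 ± 0.40 and −0.73 ± 0.44.

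The rest of the pathway was read from 56 genes in 5 lists: other ligands, secretion, receptors, cytoplasmic core, and nuclear factors and targets. Between ectoderm and mesenchyme 17 of the 46 tested were higher in the ectoderm and 12 lower, where 55.5% of all genes were called, with a median log2 fold change of 0.05, against −0.03 over all genes. Of the 10 other ligands listed, 5 passed the filter on low counts, and the rest were not tested. All 5 were higher in the ectoderm, led by *Wnt9b* (8.74), *Wnt8a* (7.37) and *Wnt10b* (7.13). A ligand found almost only in the ectoderm passes that filter through the ectoderm, so that the shared direction is no separate result. *Wnt9b* was at 0 to 17.2 CPM and *Wnt10b* at 3.88 to 15.0 CPM in the ectoderm. In the ridge 1 of 40 was lower, *Wnt9b*, which had no UMI in the ridge of either embryo, and 11 were higher, where 4.79% of all genes were called. The leading ones were *Notum*, which encodes a secreted enzyme that inactivates WNT proteins, at 54.1 and 60.6 CPM (3.13 ± 0.54, adjusted p = 6.64e-07), and *Tcf7*, a nuclear partner of β-catenin, at 144 and 116 CPM (2.65 ± 0.31, adjusted p = 6.02e-15). In *En1* cells outside the ridge 2 of 37 were called, against 1.65% of all genes, the receptor genes *Fzd8* (1.38 ± 0.35) and *Fzd1* (1.27 ± 0.15), both higher.

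Along the proximodistal axis 14 of 44 pathway genes were higher and 21 lower in distal cells (median −0.09, all genes −0.01), where 60.1% of all genes were called. The receptors divided: *Ror1*, for a receptor of WNT5A, was lower in distal cells at 0.839 to 3.25 CPM against 11.6 to 20.7 CPM (−3.11 ± 0.10, adjusted p = 2.80e-20), *Fzd8* was lower (−2.15 ± 0.12) and *Fzd10* higher, at 33.2 to 87.3 CPM against 11.3 to 19.8 CPM (2.05 ± 0.05, adjusted p = 4.27e-20). *Fzd10* (2.49 ± 0.10) and *Tcf7* (2.21 ± 0.12) were also higher in peripheral than in core cells, where 14 of 45 genes were higher and 24 lower against 60.9% of all genes called, and *Wnt9a* was lower (−2.45 ± 0.32). In *Lmx1b* cells 12 of 46 were higher and 7 lower, against 27.3% of all genes called, and the leading 3 were *Wnt2b* (0.60 ± 0.22), *Notum* (0.58 ± 0.06) and *Axin2*, a target of β-catenin signalling (0.53 ± 0.04).

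Between genotypes 3 of 39 pathway genes were called for the mean of the mutants in distal cells, where 1.65% of all genes were. *Tcf7l2*, for a TCF factor, was at 91.6, 87.4 and 94.4 CPM in Wt, 50.6, 56.2 and 49.1 CPM in *E1C8*Δ/Δ and 34.1, 33.0 and 43.1 CPM in *E1C5*Δ/Δ, without overlap between any of the genotypes (−1.03 ± 0.09 for the mean of the mutants, adjusted p = 1.10e-05). *Tcf7l1* fell (−0.55 ± 0.10, adjusted p = 0.00888) and *Notum* rose (0.89 ± 0.18, adjusted p = 0.0187) as the other 2. In *E1C5*Δ/Δ against Wt, *Axin2* was higher in distal cells (0.71 ± 0.16, adjusted p = 0.0437). In the whole mesenchyme 3 of 47 fell, where 2.26% of all genes were called in either direction, *Tcf7l2* (−0.72 ± 0.10), *Fzd4* (−0.62 ± 0.11) and *Tcf7l1* (−0.44 ± 0.09). *Wnt9a* fell in *E1C5*Δ/Δ (−1.55 ± 0.30, adjusted p = 0.0207), and *Notum* rose in *E1C8*Δ/Δ (0.72 ± 0.17, adjusted p = 0.022). All 3 Wt libraries were male and most mutant libraries female. With sex as a covariate far fewer of all genes were called in these cells, as given below. The part of sex in the calls of these pathway genes was not tested.

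The genes whose levels ran most like those of the members were read over 18 groups of Wt cells, several of which share cells, as Pearson correlations of mean log2(CPM + 1). For the ectodermal ligands other than *Wnt3* the closest genes correlated at 0.989 or more. They were *Lad1*, *Trp63* and *Trim29* for *Wnt6*, *Ovol1*, *Cbr2* and *Prom2* for *Wnt7a* and *Cldn3*, *Krt7* and *Grhl3* for *Wnt7b*. *Cyp26a1*, *AI661453* and *Cdh1* followed *Wnt4*, and *Ccdc68*, *Bicdl2* and *Kcna1* followed *Wnt10a*. *Wnt5a* was closest to *Bmp7* (0.970), *Fam241b* and *Arid3b*, *Wnt5b* to *Hvcn1* (0.971), *Crispld1* and *Asf1a*, and *Wnt11* to *Col1a2* (0.951), *S1pr3* and *5730522E02Rik*. Among the members themselves, the 6 ectodermal genes correlated at 0.908 or more with each other, *Wnt5a* at 0.327 to 0.452 with those 6, at 0.569 with *Wnt5b* and at 0.563 with *Wnt11*. The 6 had been set apart by their excess in the ectoderm, so that their correlations with each other are no separate result. The same holds for the genes named as closest to the ectodermal ligands. The ectoderm groups were chosen by epithelial markers, and any gene found mostly in those groups would follow these ligands. The named genes can include such markers.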

How the data were processed

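Per the labels, the authors made the deposited count matrices with Cell Ranger 6.0.1 on mm10 from Chromium 3′ libraries, 1 per embryo. Each count is a UMI of a gene in a barcode, without normalisation. The labels also name Seurat 4.3.0.1. Cells with over 2500 genes, under 200000 UMIs and under 10% mitochondrial UMIs were kept, and doublets were called from artificial doublets at 0.8% per 1000 barcodes. Lineages came from marker panels (at least 4 of 12 for ectoderm, 2 of 5 for mesenchyme), with no clustering. Cells were thinned to 5000 UMIs (ectoderm) or 10000 (mesenchyme) to place them in groups, and all cells to 5000 for shares of cells with a UMI and members per cell. The doublet rate and panels are not the study's, so groups may differ from its annotation. All UMIs of a group were summed per library (at least 10 cells), filtered with edgeR's filterByExpr and fitted with edgeR 4.0.16 (TMM, quasi-likelihood, adjusted p under 0.05 over all genes) in R 4.3.3, with library as block within libraries and genotype alone between them. Named pathway genes are the 3 with the largest absolute log2 fold change among those called in a comparison. Members, panels and lists were chosen with earlier results of these data known. The fit was tested on simulated data with 200 genes changed by 1 log2 unit. For the mutants against Wt, 47.5% of them were recovered in the ectoderm (9904 genes) and 71.5% in the mesenchyme (16197 genes). For ectoderm against mesenchyme 72% were recovered (13215 genes). Unchanged genes called by the fit numbered 13, 13 and 5 in that order. X and Y genes and 4 transgene features were left out. 3′ UMIs were not divided by gene length, and no test was run between genes. Alternatives were DESeq2 1.42.0, RLE size factors, no filter, doublets kept, stricter gates, the sex or replicate block, and leaving out each library. The genes closest to *Wnt3* are not reported here.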

Additional observations from a re-analysis of the deposited data

Results flagged for a closer look

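Within libraries, the log2 ratio of a member between both groups of cells, as log2(CPM + 1), was tested for a library far from the others in 33 sets, and 8 had one. Chance flags about 1 in 20 groups. *Wnt10a* in ectoderm over mesenchyme was at 2.54 in *E1C5*Δ/Δ replicate 3 against 3.60 to 4.22 in the other 6 libraries, and *Wnt11* in distal over proximal mesenchyme was at −2.95 in Wt replicate 3 against −1.59 to −0.50 in the other 8. In *Lmx1b* cells over the others, *Wnt5a* was at −0.29 in Wt replicate 3 against −0.10 to 0.08.

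*E1C8*Δ/Δ replicate 1, which kept the fewest cells (592), gave the other 5. In *Lmx1b* cells over the others it had −0.99 for *Wnt6* (other libraries −0.35 to 0.11), −0.48 for *Wnt7a* (−0.10 to 0.10), 0.60 for *Wnt7b* (−0.13 to 0.07) and 0.14 for *Wnt11* (0.45 to 0.64). In peripheral over core mesenchyme it had 1.04 for *Wnt6* (−0.65 to 0.20). The levels behind its *Wnt6*, *Wnt7a* and *Wnt7b* ratios were low. In *Lmx1b* cells against the others *Wnt6* was at 0 and 0.984 CPM and *Wnt7a* at 0 and 0.394 CPM. *Wnt7b* was at 0.66 and 0.0984 CPM there, and *Wnt6* at 1.05 and 0 CPM in peripheral and core cells. The part of background and of sampling in these ratios was not tested.

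Between the alleles, tested directly in the mesenchyme, *Wnt11* (log2 difference 1.06) and *Wnt3* (1.44) differed, as described above.

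Outside the compared tissues, *Wnt5b* had a median of 22.5 CPM in muscle cells (16.0 to 25.9 CPM), above the 0.245 to 1.49 CPM of red blood cells. *Wnt5a* had a median of 12.8 CPM in muscle cells (7.59 to 16.7 CPM) against 1.56 to 7.22 CPM in red blood cells, and *Wnt4* a median of 5.00 CPM in myeloid cells (4.02 to 5.20 CPM, 4 libraries) against 0.776 to 2.48 CPM, from only 2 to 7 UMIs in 10 to 33 cells per library.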

How the results depend on the processing

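Of 102 member results tested, 31 were called, 15 of these in every alternative that gave a value, and none reversed. The 102 leave out the difference between the alleles in distal cells and ectoderm. There edgeR called none of 3 and none of 7 members, against 6.3% and 0.121% of all genes. Few ectoderm and ridge cells, and few UMIs of the ectodermal ligands in the mesenchyme, limit those comparisons. Members called in the ridge (4) were 1 with DESeq2 and 2 without the library block. Without that block, members called were 0 in *En1* cells (from 2), 0 in *Lmx1b* cells (from 3) and 1 in peripheral cells (from 2), where no filter on low counts gave 4. With sex as a covariate, members called fell to 0 for *E1C8*Δ/Δ in the mesenchyme (from 1), to 1 between the alleles there (from 2), to 0 for the mutants in distal cells (from 2) and to 0 for *E1C5*Δ/Δ there (from 1). For *E1C8*Δ/Δ in distal cells DESeq2 called 0, giving *Wnt11* no adjusted p, and no filter gave 2. Leaving out 1 library gave 0 to 1 members for the mutants in the mesenchyme (1 without Wt replicate 3 or *E1C5*Δ/Δ replicate 3), 0 to 3 for *E1C8*Δ/Δ (0 without *E1C8*Δ/Δ replicate 2, 3 without Wt replicate 3), 1 to 3 between the alleles, 1 to 2 for the mutants in distal cells (1 without Wt replicate 1 or 2), 1 to 2 for *E1C8*Δ/Δ there (2 without Wt replicate 3), and 0 to 1 for the mutants and for *E1C5*Δ/Δ in the ectoderm (1, *Wnt5a*, without *E1C5*Δ/Δ replicate 3). Replicate numbers mark separate embryos, and the labels do not say whether libraries of the same number were processed together. The study describes isolation and sequencing as done 3 times with 1 pair of buds per genotype, so shared rounds are possible. In the mesenchyme same-numbered deviations correlated at −0.141 to 0.0839 and differently numbered ones at −0.143 to 0.256. The replicate block left 1 member called between the alleles there (from 2) and 808 genes for *E1C8*Δ/Δ (from 1589). Rounds shared under other numbers would be missed by this block and were not tested. The causes were not tested.

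Counts over all genes that moved by more than 1.5 times were as follows. In the ridge 408 became 103 with DESeq2, 646 with doublets kept and 170 without the library block. In *En1* cells 146 became 57 with DESeq2, 261 without the filter, 72 with strict gates, 9 without the library block and 90 to 135 without 1 library. Without the library block, 8062 became 4638 (distal), 4178 became 98 (*Lmx1b*) and 8560 became 5049 (peripheral). In the mesenchyme the mutants' 366 became 987 with DESeq2, 130 with the replicate block, 13 with sex and 155 to 884 without 1 library. *E1C8*Δ/Δ (1589) became 226 with sex and 414 to 2081 without 1 library, *E1C5*Δ/Δ (257) 593 with DESeq2, 139 with the replicate block, 35 with sex and 114 to 318 without 1 library, and the difference between the alleles (1639) 849 with the replicate block and 412 to 2263 without 1 library. In distal cells the mutants' 183 became 541 without the filter, 18 with sex and 97 to 298 without 1 library, *E1C8*Δ/Δ (734) 1142, 106 and 137 to 989, and 405 with the replicate block, and *E1C5*Δ/Δ (125) 355, 30 and 80 to 127. In the ectoderm the mutants' 0 became 2 with DESeq2, 26 without the filter, 2 with the replicate block, 1 with sex and 0 to 50 without 1 library, *E1C8*Δ/Δ (3) 7 with DESeq2, 54 without the filter, 1 with strict gates, 1 with at least 20 cells and 1 to 40 without 1 library, and *E1C5*Δ/Δ (4) 1 with DESeq2, 70 without the filter, 0 with doublets kept, strict gates or sex, 7 with the replicate block and 2 to 167 without 1 library.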
